A study of Mus musculus with 12 samples.

Results

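The 10 genes described here are T cell markers: Cd3d, Cd3e, Cd3g, Cd247, Cd4, Cd8a, Cd8b1, Cd2, Lck and Foxp3. They were taken as a fixed set of symbols, and each symbol matched 1 of the 21960 genes listed in every tumor. Their levels were compared across 4 treatment groups of PyMT mammary tumors with 3 tumors in each group, 12 tumors in all. Every library was made from total RNA of a whole snap-frozen tumor, so the values mix tumor cells with all other cells of the tissue.

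A T cell recognizes antigen through its T cell receptor, whose antigen-binding chains sit in the membrane together with the CD3 gamma, delta and epsilon chains and the zeta chain. The coreceptors CD4 and CD8 bind MHC molecules on the partner cell and bring the kinase Lck to the receptor, where it phosphorylates the CD3 and zeta tails. PD-1 is an inhibitory receptor on activated T cells that dampens this signal, and antibodies that block it are used to restore T cell activity against tumors.

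The mice were C57BL/6 females carrying the polyoma middle T oncogene (PyMT) under the mouse mammary tumor virus promoter, which drives tumors in the mammary glands. The IgG1 group received the isotype control antibody and the anti-PD-1 group the PD-1-blocking antibody 4H2, in both cases from a tumor diameter of 0.6 cm, with a first dose of 20 mg/kg and doses of 10 mg/kg on days 6, 12 and 18. The DOX/IgG1 and DOX/anti-PD-1 groups received doxorubicin, a DNA-damaging chemotherapeutic, at 5 mg/kg once a week and the same antibodies at 10 mg/kg a day later, from a diameter of 1 cm. The labels give 5 weeks of treatment for all groups, and age is not given in the sources used here. Doxorubicin, starting size, first antibody dose and schedule therefore cannot be told apart in any comparison of a doxorubicin group with an antibody-only group. Epcam, an epithelial surface protein, was listed at 418 to 954 TPM in the 12 tumors, and Ptprc, which encodes the pan-leukocyte antigen CD45, at 51.9 to 170 TPM.

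Levels are given in TPM, transcript abundances scaled for transcript length and library size, so levels of different genes can be set side by side. TPM keeps no read count, and library depth is therefore unknown. The median correlation of log2(TPM + 1) between any pair of tumors was 0.953, and the range was 0.927 to 0.976. The first replicate of DOX/IgG1 stood apart. Its mean correlation with the other tumors of its group was 0.930, it had the fewest genes above 0 (13856, against up to 15426 in anti-PD-1 replicate 3), and its lactoferrin gene Ltf was at 7185 TPM against 647 to 1758 TPM elsewhere. The header of its value column also carries the extra word test, and the headers of the DOX/anti-PD-1 tumors end in another number than those of all other tumors. What either means is not given in the sources used here. Several results are given with and without it.

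Many of the T cell genes were near 1 TPM, and 19 of their 120 values (15.8%) were listed at 0. Lck was the only member above 0 in every tumor. Cd3d was listed at 0 in 7 tumors, Cd2 in 3, Cd3g and Cd247 in 2 each, and Cd3e, Cd4, Cd8a, Cd8b1 and Foxp3 in 1 each. By tumor, 4 members were listed at 0 in anti-PD-1 replicate 1, 3 each in IgG1 replicate 2 and DOX/anti-PD-1 replicate 3, and 0 in IgG1 replicate 1 and DOX/IgG1 replicate 2.

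A value of 0 was common at these levels. Among all 1932 genes with a mean of 0.5 to 2 TPM, 33.8% of values were listed at 0, against 10 of 48 values (20.8%) for the 4 members in that range, Cd3d, Cd8a, Cd8b1 and Foxp3. Among the 3644 genes with a mean of 2 to 10 TPM it was 5.30%, against 9 of 72 (12.5%) for the other 6 members. DOX/IgG1 replicate 1 had 12.4% of the latter genes at 0, the highest share of the 12 tumors, while anti-PD-1 replicate 3 had 2.41%. Well expressed genes could be listed at 0 too, as 36 of the 6594 genes with a median of at least 20 TPM were in at least 1 tumor. An example picked after its values were seen is the growth regulator Cdk2ap1, at 0 in anti-PD-1 replicate 1 and at 31.5 to 141 TPM in the others. A 0 is therefore reported only as a listed value, and members are given tumor by tumor rather than as means.

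**Figure D1:**
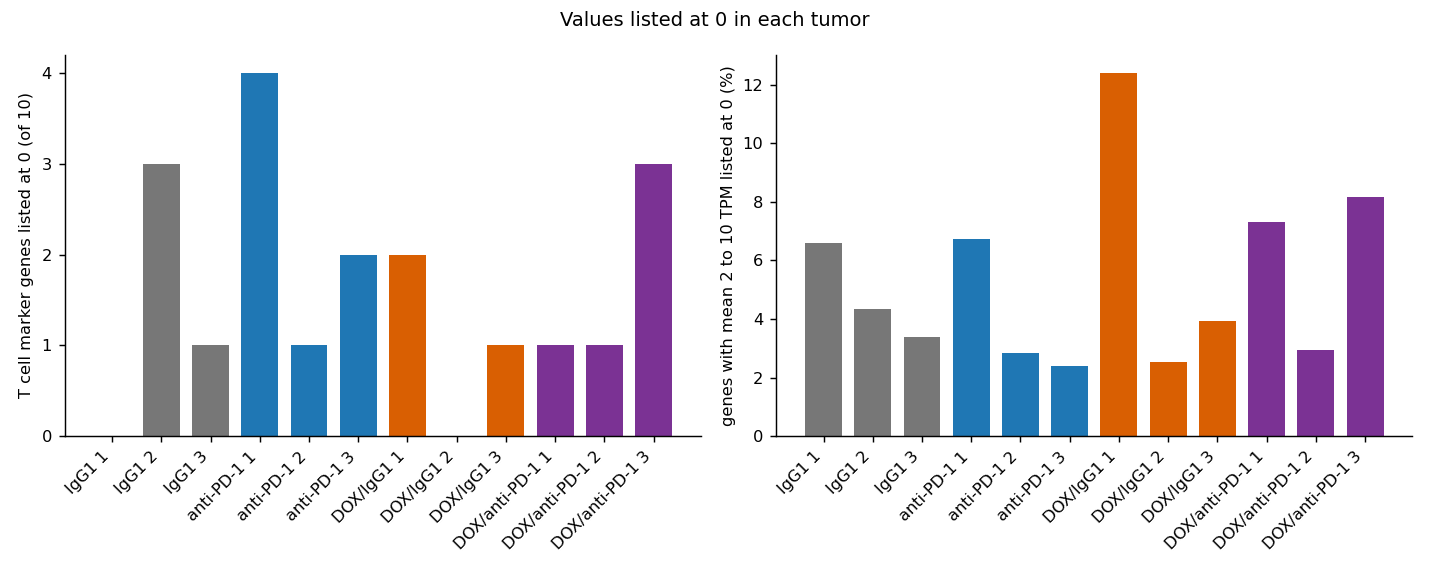
Values listed at 0 in each tumor, as the number of the 10 T cell marker genes (left) and as the percentage of all genes with a mean of 2 to 10 TPM (right). The members at 0 range from 0 to 4 per tumor, and the right panel is highest in DOX/IgG1 replicate 1 at 12.4%.

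The genes of the CD3 chains lie side by side. On GRCm38, Cd3g (ENSMUSG00000002033, minus strand) spans chr9:44969572-44980431 and Cd3d (ENSMUSG00000032094, plus strand) chr9:44981786-44987339, with start sites facing away from each other across 1354 bases. Cd3e (ENSMUSG00000032093, minus strand) follows at chr9:44998740-45009627, so that all of them fit in 40.1 kb. The zeta chain gene Cd247 (ENSMUSG00000005763) is on another chromosome, at chr1:165788681-165877277 on the plus strand. Cd8b1 (ENSMUSG00000053044, chr6:71322788-71337494) and Cd8a (ENSMUSG00000053977, chr6:71373427-71379173) are also neighbors, 35.9 kb apart on the plus strand.

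Cd4 (ENSMUSG00000023274) lies at chr6:124864692-124888221, Cd2 (ENSMUSG00000027863) at chr3:101275899-101287939 and Lck (ENSMUSG00000000409) at chr4:129548344-129573641, each on the minus strand. Foxp3 (ENSMUSG00000039521) lies on the plus strand of the X chromosome, at chrX:7573644-7595245. Genes on the opposite strand overlap Cd247 (among them Pou2f1), Cd3e (Gm48719) and Foxp3 (among them Ppp1r3f and Ccdc22). The library kit keeps strand, but whether the quantification used it is not given in the sources used here, so reads of these genes and their overlapping neighbors may not have been separated.

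The promoters of the signaling chains are shown because their genes encode parts of 1 receptor complex and are the members whose values are set side by side first. RefSeq (GRCm38.p6) held promoter windows for 7 of the 10 members, each from 250 bases before to 50 bases after a start site. The windows are chr9:44981536-44981835 (plus strand), chr9:45009562-45009861 (minus), chr9:44980382-44980681 (minus) and chr1:165788431-165788730 (plus), written from 5′ to 3′ in the direction of transcription. Capitals mark matches, on either strand, to the core letters of motifs bound by factors active in T cells: TGTGGT (RUNX), AGGAAG (ETS), CAGCTG (an E-box) and the TATA box TATAAA.
Cd3d: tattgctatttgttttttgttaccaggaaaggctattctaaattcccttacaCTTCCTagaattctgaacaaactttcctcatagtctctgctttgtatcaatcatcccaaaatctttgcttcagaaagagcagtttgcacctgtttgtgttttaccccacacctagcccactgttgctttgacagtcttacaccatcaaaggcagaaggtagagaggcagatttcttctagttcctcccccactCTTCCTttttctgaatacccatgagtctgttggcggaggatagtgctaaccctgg
Cd3e: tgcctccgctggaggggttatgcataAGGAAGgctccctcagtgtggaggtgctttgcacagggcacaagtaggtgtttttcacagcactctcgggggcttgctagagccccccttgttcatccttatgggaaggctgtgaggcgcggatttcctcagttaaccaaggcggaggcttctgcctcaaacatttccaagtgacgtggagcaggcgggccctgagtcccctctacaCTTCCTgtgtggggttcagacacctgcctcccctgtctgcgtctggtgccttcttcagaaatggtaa
Cd3g: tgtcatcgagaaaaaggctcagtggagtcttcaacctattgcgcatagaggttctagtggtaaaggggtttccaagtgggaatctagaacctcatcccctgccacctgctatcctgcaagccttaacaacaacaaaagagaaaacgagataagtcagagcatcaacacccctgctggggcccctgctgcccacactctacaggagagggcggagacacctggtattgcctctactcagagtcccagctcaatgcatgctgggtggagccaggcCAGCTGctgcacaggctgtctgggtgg
Cd247: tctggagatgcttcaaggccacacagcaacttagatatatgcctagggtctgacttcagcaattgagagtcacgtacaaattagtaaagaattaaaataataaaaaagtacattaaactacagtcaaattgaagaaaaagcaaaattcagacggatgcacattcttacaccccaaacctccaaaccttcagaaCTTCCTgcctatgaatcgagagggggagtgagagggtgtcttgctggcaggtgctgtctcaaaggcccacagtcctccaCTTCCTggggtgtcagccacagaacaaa
AGGAAG or its complement occurred at 2 places each in the Cd3d, Cd3e and Cd247 windows and at none in that of Cd3g, which held 1 CAGCTG. Of all 32851 windows of this length, 35.4% held AGGAAG, 16.3% CAGCTG, 16.8% TGTGGT and 13.6% TATAAA. A match is a description of letters only.

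Cd3e encodes the epsilon chain, which is part of every CD3 dimer, and had the highest mean level of the members, 7.89 TPM over the 12 tumors. In IgG1 tumors it was at 14.6, 5.56 and 2.27 TPM, and in the anti-PD-1 group at 0, 7.84 and 1.58 TPM. In DOX/IgG1 tumors it was at 0.88, 24.6 and 15.7 TPM, and in the DOX/anti-PD-1 group at 3.31, 7.30 and 10.97 TPM. The 4 groups overlapped. The spread within DOX/IgG1, from 0.88 to 24.6 TPM, covered the values of every other tumor above 0, and its lowest value came from replicate 1.

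Cd3d encodes the delta chain and had the lowest mean of the members, 0.615 TPM. It was at 0.83, 0 and 0.65 TPM in the IgG1 group and at 0 in all anti-PD-1 tumors. In DOX/IgG1 tumors it was at 0, 0.52 and 0 TPM, and in the DOX/anti-PD-1 group at 1.16, 0 and 4.22 TPM. The only values above 1 TPM were thus in DOX/anti-PD-1 replicates 1 and 3, and the second tumor of that group was listed at 0.

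Cd3g encodes the gamma chain. It was listed at 1.56, 0 and 0 TPM in the IgG1 group and at 1.65, 2.70 and 4.00 TPM in the anti-PD-1 group. In DOX/IgG1 tumors it was at 2.29, 8.01 and 11.5 TPM, and in the DOX/anti-PD-1 group at 7.56, 2.27 and 15.1 TPM. The IgG1 tumors were the 3 lowest of the 12, although the highest of them lay just under the lowest anti-PD-1 tumor. The anti-PD-1 and DOX/anti-PD-1 groups overlapped.

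Cd247 encodes the zeta chain, which carries most of the signaling motifs of the receptor and is also used by receptors of natural killer (NK) cells. It was at 4.55, 0 and 1.43 TPM in the IgG1 group and at 9.37, 3.05 and 8.15 TPM in the anti-PD-1 group. In DOX/IgG1 tumors it was at 9.28, 10.5 and 11.8 TPM, and in the DOX/anti-PD-1 group at 2.30, 8.02 and 0 TPM. All DOX/IgG1 tumors lay above all IgG1 and all DOX/anti-PD-1 tumors, while the DOX/IgG1 and anti-PD-1 groups overlapped at 9.28 and 9.37 TPM. DOX/anti-PD-1 replicate 3 had the highest Cd3g and Cd3d of all tumors and was listed at 0 for Cd247.

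The coreceptor genes were low throughout. Cd4, which marks helper and regulatory T cells and is also expressed by some myeloid cells, was at 2.47, 4.87 and 1.33 TPM in the IgG1 group and at 1.03, 2.59 and 2.07 TPM in the anti-PD-1 group. It was at 1.43, 5.25 and 7.51 TPM in the DOX/IgG1 group and at 0, 3.03 and 1.61 TPM in the DOX/anti-PD-1 group. The highest values were in DOX/IgG1 replicates 2 and 3, and all groups overlapped.

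Cd8a and Cd8b1 encode the chains of the CD8 coreceptor of cytotoxic T cells. Cd8a was at 0.88, 1.04 and 1.73 TPM in IgG1, 0, 0.83 and 1.16 TPM in anti-PD-1, 1.16, 5.57 and 3.63 TPM in DOX/IgG1 and 0.96, 2.46 and 0.87 TPM in the DOX/anti-PD-1 group. Cd8b1 was at 1.82, 2.76 and 0.71 TPM in IgG1, 0, 0.86 and 0.39 TPM in anti-PD-1, 1.54, 4.77 and 0.69 TPM in DOX/IgG1 and 1.49, 1.09 and 2.75 TPM in the DOX/anti-PD-1 group. Both genes were highest in DOX/IgG1 replicate 2 and listed at 0 in anti-PD-1 replicate 1. For Cd8b1, all DOX/anti-PD-1 tumors lay above all anti-PD-1 tumors, and all other pairs of groups overlapped or shared a value for both genes.

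Cd2 encodes an adhesion molecule of T and NK cells. It was at 2.86, 4.50 and 1.72 TPM in IgG1, 2.91, 3.09 and 0 TPM in anti-PD-1, 0, 5.22 and 4.98 TPM in DOX/IgG1 and 3.06, 2.14 and 0 TPM in the DOX/anti-PD-1 group. Each group except IgG1 had a tumor listed at 0, and all groups overlapped.

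Lck was at 1.81, 5.51 and 1.43 TPM in the IgG1 group and at 3.43, 3.79 and 1.10 TPM in the anti-PD-1 group. In DOX/IgG1 tumors it was at 9.25, 8.60 and 5.51 TPM, and in the DOX/anti-PD-1 group at 5.09, 10.8 and 3.82 TPM. The DOX/IgG1 tumors reached or exceeded every IgG1 tumor, with a shared value of 5.51 TPM, and all DOX/anti-PD-1 tumors lay above all anti-PD-1 tumors, by as little as 3.82 against 3.79 TPM. Unlike most members, Lck was high in DOX/IgG1 replicate 1.

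Foxp3 encodes the defining transcription factor of regulatory T cells. It was at 0.39, 1.79 and 1.59 TPM in IgG1, 2.69, 0.37 and 0.32 TPM in anti-PD-1, 1.34, 1.89 and 1.5 TPM in DOX/IgG1 and 0.55, 0.73 and 0 TPM in the DOX/anti-PD-1 group. The DOX/anti-PD-1 tumors were all below the DOX/IgG1 tumors, and the highest value of all was in anti-PD-1 replicate 1, where 4 other members were at 0.

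**Figure D2:**
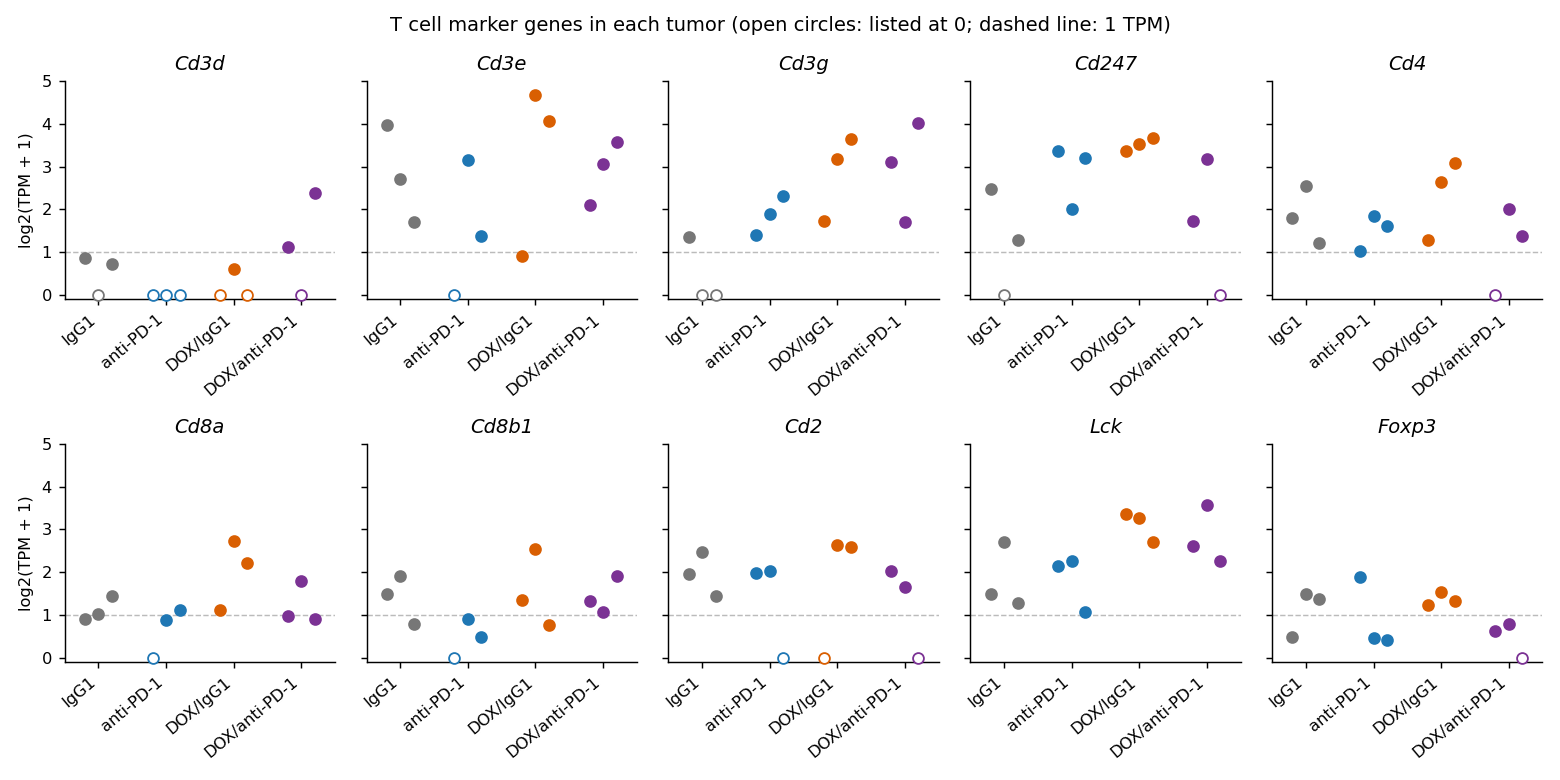
Level of each T cell marker gene as log2(TPM + 1) in each tumor, by treatment group; open circles are values listed at 0, and the dashed line is 1 TPM. The IgG1 tumors are the lowest for Cd3g (0 to 1.56 TPM), and the DOX/IgG1 tumors lie close together and high for Cd247 (9.28 to 11.8 TPM).

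Ordered by their mean over the 12 tumors, the members ran from Cd3e (7.89 TPM) through Cd247 (5.70), Lck (5.02), Cd3g (4.72), Cd4 (2.77), Cd2 (2.54), Cd8a (1.69), Cd8b1 (1.57) and Foxp3 (1.10) to Cd3d (0.615). The ranges over the 12 tumors of every neighboring pair in this order overlapped. The delta and epsilon chains, which share a complex and a locus, thus stood at opposite ends.

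Doxorubicin with the control antibody was compared with the control antibody alone to ask what chemotherapy does to these genes. Fold changes below are differences of mean log2(TPM + 1) with their standard errors, a scale that understates the change of low genes, and 3 tumors stood on each side. Cd3g was higher in DOX/IgG1 by 2.39 (SE 0.65, unadjusted limma p = 0.00542, exact permutation p = 0.1), Cd247 by 2.27 (SE 0.62, limma p = 0.00526, exact p = 0.1) and Lck by 1.28 (SE 0.50, limma p = 0.0306, exact p = 0.2). After adjustment over 13874 genes, limma gave 0.469 for Cd3g and Cd247 and 0.597 for Lck, so none passed the limit of 0.1. The exact permutation test was two-sided, and 0.1 is the smallest p that 3 against 3 tumors allow. The other 7 members lay between -0.33 (Cd3d) and 0.88 (Cd8a).

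Of the 10 members, 0 were called in DOX/IgG1 against IgG1 by limma at an adjusted p under 0.1 and an absolute log2 fold change above 1, against 0.0360% of all genes tested. The 5 genes called became 0 without IgG1 replicate 1, 2 or 3, 2 without DOX/IgG1 replicate 2 or 3 and 113 without DOX/IgG1 replicate 1, and 1073 genes had an unadjusted p under 0.05. Hist1h2af, a histone gene, had the smallest limma adjusted p (0.0199) at -6.08. An unadjusted p under 0.05 and a higher level were found for 3 members, against 5.03% of all genes, and 2 members, Cd3g and Cd247, had groups that did not overlap, against 14.0% of all genes. The median over the 10 members was 0.45, with 8 positive, beside 0.12 over all genes tested, of which 60.6% were positive.

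DOX/IgG1 replicate 1 decided whether Cd3g passed. Without that tumor, the fold change of Cd3g was 2.96 and the limma adjusted p was 0.0997, with 113 genes called in all. Over the alternatives run for single genes (pseudocount, no minimum, scaling, replicate block and each tumor left out), that p ranged from 0.0997 to 0.863 and the fold change from 1.99 to 4.57. Without the same tumor Cd247 was at 2.35 (limma adjusted p = 0.211), Lck at 1.16 (limma adjusted p = 0.419) and Cd8a at 1.33 (limma adjusted p = 0.299). Cd3e was at 1.58 in place of 0.42 (limma adjusted p = 0.328) and Cd4 at 1.01 in place of 0.48 (limma adjusted p = 0.452). For these 5 genes each value is the lowest limma adjusted p over the same alternatives, and the highest was 0.863 for Cd247 and Lck, 0.934 for Cd8a, 0.993 for Cd4 and 1 for Cd3e. Without that tumor the members had a median of 1.08. For the median, Cd8a, Cd3e and Cd4, leaving out certain other tumors gave smaller values. Without DOX/IgG1 replicate 2 the median was 0.25, Cd8a was at 0.53 and Cd3e at -0.31. Without IgG1 replicate 3 the median was 0.27 and Cd4 at 0.16, and without DOX/IgG1 replicate 3 Cd4 was at 0.11. In bulk tumor RNA, a different number of T cells and a different amount of these transcripts per T cell cannot be told apart.

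Anti-PD-1 alone was compared with IgG1 to show the effect of PD-1 blockade without chemotherapy. Cd3g was higher by 1.42 (SE 0.54, unadjusted limma p = 0.0248, exact permutation p = 0.1) and Cd247 by 1.61 (SE 0.64, limma p = 0.0303, exact p = 0.2). Both had a limma adjusted p of 0.996. Without IgG1 replicate 2 Cd247 was at 0.99. The epsilon chain gene Cd3e had a negative fold change, -1.29 (SE 0.79), which was -0.54 without anti-PD-1 replicate 1, -0.71 without IgG1 replicate 1 and -2.11 without anti-PD-1 replicate 2. The other members apart from Cd3d lay between -0.94 (Cd8b1) and 0.00 (Lck).

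In this comparison limma called 0 members and 0 genes, which is 0% of the 13692 tested, with 630 genes at an unadjusted p under 0.05. The genes called were 4 without IgG1 replicate 1 and 1 without IgG1 replicate 2 or anti-PD-1 replicate 2. The 2 members with a higher level at an unadjusted p under 0.05 compare with 1.75% of all genes, and the 1 member whose groups did not overlap, Cd3g, with 9.88%. The median over the members was -0.42, with 3 positive, beside -0.03 over all genes, of which 47.2% were positive. It was -0.19 without IgG1 replicate 2 or anti-PD-1 replicate 3, and in the latter case 5 members were positive. Of genes marking other tissue, 0 of 8 fibroblast genes (median -0.13) and 0 of 6 adipocyte genes (median -0.75) were positive. The fibroblast median was 0.03 without IgG1 replicate 3. The adipocyte median was -1.40 and -0.36 without IgG1 replicates 1 and 2. Col1a1, a fibroblast gene, was at -1.50 (SE 0.30, limma adjusted p = 0.564). The part of these tissues in the T cell values was not tested.

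The addition of doxorubicin to anti-PD-1 gave no member an unadjusted limma p under 0.05. Cd3e was at 1.41 (SE 0.76, limma p = 0.0944, exact permutation p = 0.3), Cd3g at 1.07 (SE 0.59, limma p = 0.103, exact p = 0.3), Lck at 0.99 (SE 0.51, limma p = 0.0819, exact p = 0.1) and Cd8b1 at 0.97 (SE 0.51, limma p = 0.0891, exact p = 0.1) in DOX/anti-PD-1 against anti-PD-1. Cd247 was at -1.23 (SE 0.76), and at -0.41 without DOX/anti-PD-1 replicate 3 and -2.00 without replicate 2 of that group. Without the same tumors Cd3g was at 0.53 and 1.68. Cd3e was at 0.66 without anti-PD-1 replicate 1 and at 2.23 without anti-PD-1 replicate 2, and Lck at 0.61 without anti-PD-1 replicate 3 or DOX/anti-PD-1 replicate 2. For Cd8b1 and Lck the groups did not overlap, which was so for 14.9% of all genes. No anti-PD-1 tumor reached 1 TPM of Cd8b1, so this gene met the minimum of 1 TPM in 3 tumors only through the DOX/anti-PD-1 tumors. Among the genes tested, its lack of overlap was thus fixed by that minimum and is no support for a difference. Called by limma were 0 members and 0 of 13736 genes (0%), 1185 genes had an unadjusted p under 0.05, and 6.30% of all genes were higher at that limit. The genes called were 4 without DOX/anti-PD-1 replicate 2 and 1 without DOX/anti-PD-1 replicate 1 or 3 or anti-PD-1 replicate 1. The median over the members was 0.77, with 6 positive, beside 0.11 over all genes, of which 60.0% were positive. It was 0.44 without anti-PD-1 replicate 1 or DOX/anti-PD-1 replicate 2. It includes Cd3d, for which no fold change is given because all anti-PD-1 tumors were listed at 0.

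Some markers of connective and fat tissue were higher in this comparison at an unadjusted limma p under 0.05, while no T cell member was. The markers were 5 of 8 fibroblast genes and 4 of 6 adipocyte genes, against 6.30% of all genes, and limma called 0 of them. Thy1, among these fibroblast genes at 0.88 (SE 0.37), is also on the list of T cell receptor signaling and costimulation given below. All 8 fibroblast genes were positive with a median of 0.70, and all 6 adipocyte genes with a median of 1.43. The 7 T cell members tested had a median of 0.97, which is above that of the fibroblast genes, and 4 of them were positive. The fibroblast list, led by Col1a1, summed to 968, 870 and 729 TPM in the anti-PD-1 group and to 1110, 1466 and 1667 TPM in the DOX/anti-PD-1 group. The adipocyte list, led by Adipoq, summed to 49.6, 49.1 and 76.2 TPM and to 486, 110 and 116 TPM. In the IgG1 group, which is not part of this comparison, the fibroblast list summed to 1228, 1182 and 1855 TPM. The adipocyte list summed there to 39.9, 185 and 122 TPM. Dcn, which encodes the matrix proteoglycan decorin, was at 1.03 (SE 0.20, limma adjusted p = 0.429), and Adipoq, which encodes adiponectin, at 1.76 (SE 0.56, limma adjusted p = 0.495). Without DOX/anti-PD-1 replicate 1 Adipoq was at 1.08 and the adipocyte median was 0.92. The part of these tissues in the T cell values was not tested.

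When anti-PD-1 was added to doxorubicin, 8 of the 10 members had negative fold changes, none of which passed, while 46.3% of all genes tested had positive ones. Without DOX/IgG1 replicate 2, it was 6 of the 10. Cd247 was at -1.89 (SE 0.74, unadjusted limma p = 0.0321, limma adjusted p = 0.988, exact permutation p = 0.1) for DOX/anti-PD-1 against DOX/IgG1, followed by Cd4 at -1.21 (SE 0.71) and Foxp3 at -0.89 (SE 0.54). Cd247 was at -1.07 without DOX/anti-PD-1 replicate 3, where it was listed at 0, and at -2.66 without DOX/anti-PD-1 replicate 2, while Cd4 was at -0.64 without DOX/anti-PD-1 replicate 1. For Cd247 and Foxp3 the groups did not overlap, against 10.2% of all genes, and Foxp3 also had an exact permutation p of 0.1. No DOX/anti-PD-1 tumor reached 1 TPM of Foxp3, so this gene met the minimum of 1 TPM in 3 tumors only through the DOX/IgG1 tumors. Among the genes tested, its lack of overlap was thus fixed by that minimum and is no support for a difference. The single member lower at an unadjusted p under 0.05 compares with 2.89% of all genes, and limma called 0 members and 0 of 13946 genes (0%), with 655 at an unadjusted p under 0.05. The genes called were 3 without DOX/IgG1 replicate 1 and 1 without DOX/anti-PD-1 replicate 3. The median over the members was -0.41 beside -0.04 over all genes, and it was -1.10 without DOX/IgG1 replicate 1, -0.70 without DOX/anti-PD-1 replicate 2 and -0.14 without DOX/IgG1 replicate 2. These 4 comparisons share groups with one another, so their values are not independent.

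Over both antibodies, the 6 tumors given doxorubicin were compared with the 6 that were not. Cd3g was higher by 1.73 (SE 0.48, unadjusted limma p = 0.0026, limma adjusted p = 0.206, exact permutation p = 0.02) and Lck by 1.14 (SE 0.35, unadjusted limma p = 0.00576, limma adjusted p = 0.241, exact p = 0.01). In the exact test the labels were permuted within each antibody, and 0.005 is the smallest p that its 400 arrangements can give. Cd8a was at 0.72 (SE 0.35, exact permutation p = 0.07), while Cd247 was at 0.52 (SE 0.68), Cd4 at 0.06 (SE 0.43) and Foxp3 at -0.09 (SE 0.36). Cd247 ranged from 0.05 without IgG1 replicate 2 to 1.08 without DOX/anti-PD-1 replicate 3. For no member did the 6 and 6 tumors separate. Markers of other cells went both ways, while 63.3% of all genes were positive. Positive were 8 of 9 NK genes (median 0.66), 5 of 6 adipocyte genes (0.92) and 6 of 8 fibroblast genes (0.38). These medians fell to 0.37 without IgG1 replicate 3, 0.57 without DOX/anti-PD-1 replicate 1 and 0.14 without DOX/IgG1 replicate 2. In contrast, only 3 of 10 tumor epithelium genes (median -0.13), 2 of 6 lymph node genes (-0.63) and 2 of 7 regulatory T cell genes (-0.14) were positive. The fibroblast gene Dcn was at 1.20 (SE 0.36, limma adjusted p = 0.235). The part of these cells in the T cell values was not tested.

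Limma called 0 members and 3 of 14735 genes (0.0204%) for doxorubicin over both antibodies, with 1765 genes at an unadjusted p under 0.05 and the smallest limma adjusted p (0.0642) for St3gal4, a sialyltransferase gene. The genes called were 0 without IgG1 replicate 2 or 3, anti-PD-1 replicate 1 or DOX/IgG1 replicate 3, 5 without anti-PD-1 replicate 3, and 6, 27 and 1 without DOX/anti-PD-1 replicates 1, 2 and 3. The 2 members higher at an unadjusted p under 0.05 compare with 8.82% of all genes. The median over the members was 0.54, with 8 positive, beside 0.12 over all genes, of which 63.3% were positive. Without DOX/IgG1 replicate 1, Cd3g was at 1.91 with a limma adjusted p of 0.0916 and thus passed the limit, Lck was at 1.06 (limma adjusted p = 0.193), and 211 genes were called. Genes of other tissue also passed in that fit. They were Dcn at 1.55 (limma adjusted p = 0.0208), Enpp2 of the lymph node list at 1.92 (0.0441) and the epithelial genes Cldn4 at 1.19 (0.03) and Krt19 at 1.18 (0.057). Over the alternatives run for single genes, the limma adjusted p of Cd3g ranged from 0.0916 to 0.359 and its fold change from 1.48 to 2.92.

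For anti-PD-1 over both chemotherapy arms, limma called 0 members and 0 genes (0%), with 691 genes at an unadjusted p under 0.05. No member was lower at an unadjusted p under 0.05, against 2.91% of all genes. The smallest exact permutation p among the members was 0.075, for Cd8a at -0.63 (SE 0.35), and Cd4 was at -0.78 (SE 0.43), or -0.49 without DOX/anti-PD-1 replicate 1. The median over the members was -0.53, with 2 positive, beside -0.03 over all genes, of which 45.6% were positive, and it was -0.35 without DOX/anti-PD-1 replicate 3.

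The interaction asks whether the change with anti-PD-1 differed between tumors with and without doxorubicin. Cd247 was higher with anti-PD-1 alone and lower with anti-PD-1 on top of doxorubicin, an interaction of -3.50 (SE 1.06) whose limma adjusted p was 0.993. It was the 1 member lower at an unadjusted p under 0.05, against 2.45% of all genes, and limma called 0 members and 1 of 14735 genes (0.00679%), Bpifa2, which encodes a secreted salivary protein, with 694 genes at an unadjusted p under 0.05. The single call was lost when any tumor other than DOX/anti-PD-1 replicate 3 was left out, namely IgG1, anti-PD-1 or DOX/IgG1 replicate 1, 2 or 3 or DOX/anti-PD-1 replicate 1 or 2. The interaction of the other tested members had unadjusted limma p-values from 0.174 (Cd3g) to 0.928 (Cd2).

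**Figure D3:**
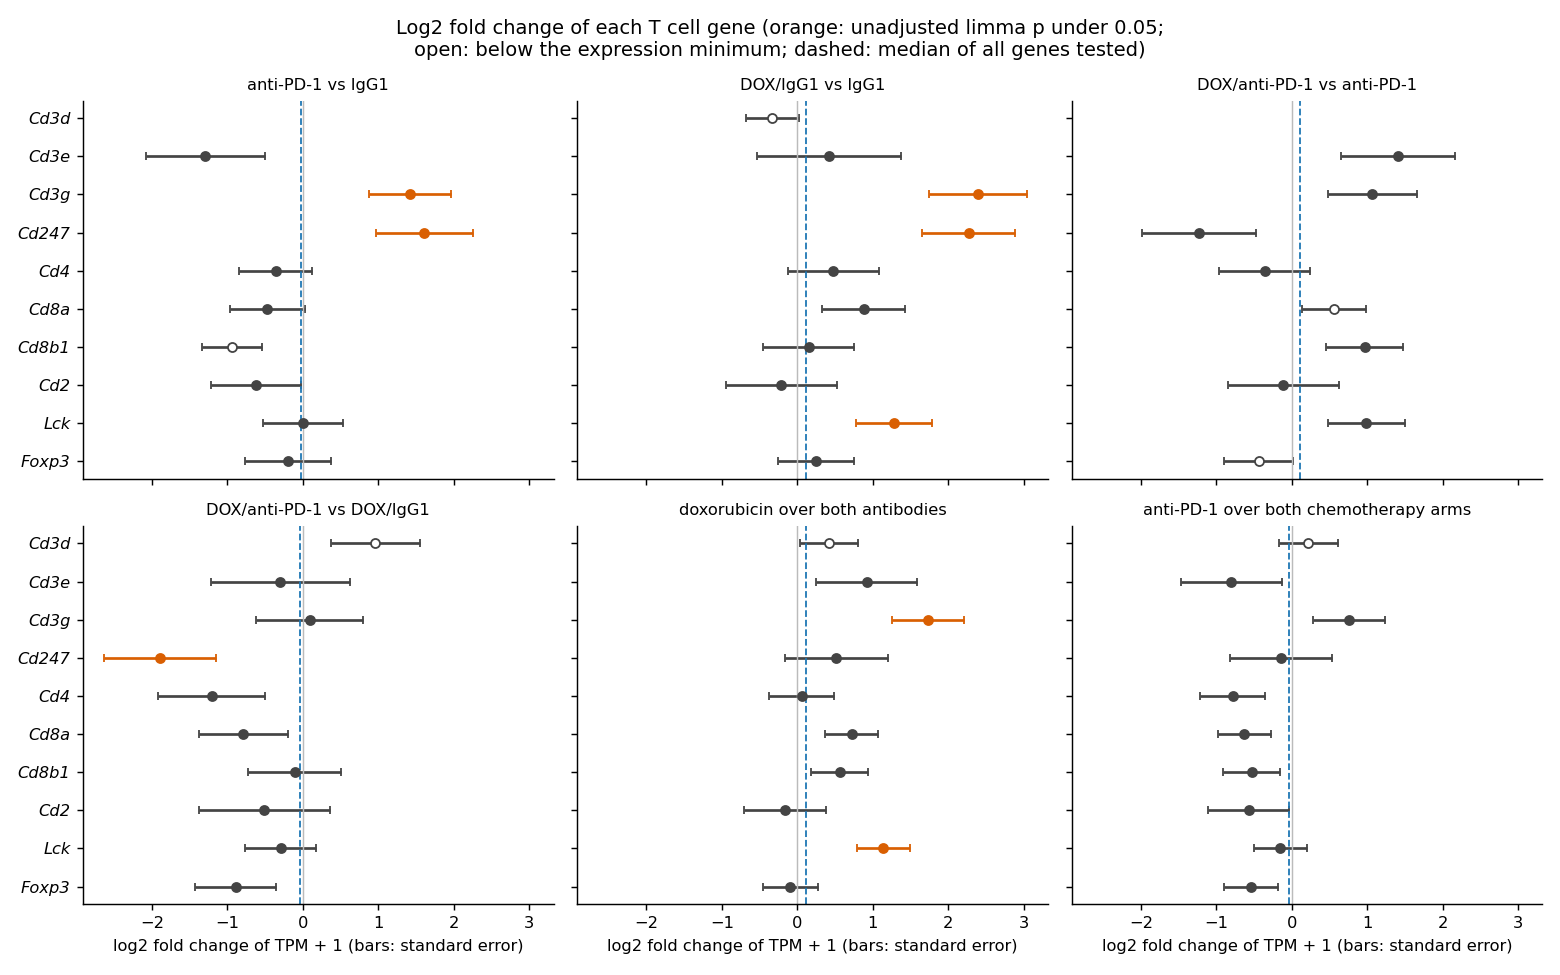
Log2 fold change of TPM + 1 for each T cell marker gene in 6 comparisons, with bars for the standard error; orange points have an unadjusted limma p under 0.05, open points were below the expression minimum, and the dashed line is the median of all genes tested; Cd3d is left out where a group was all at 0. Cd3g is at 2.39 and Cd247 at 2.27 in DOX/IgG1 against IgG1, and Cd247 is at -1.89 for DOX/anti-PD-1 against DOX/IgG1.

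Not every member could be tested in every fit, because a tested gene had to reach 1 TPM in 3 or more tumors of the fit. Cd3d never did, so 9 members were tested in DOX/IgG1 against IgG1, for DOX/anti-PD-1 against DOX/IgG1 and over all tumors. Of the others, Cd8b1 fell out of anti-PD-1 against IgG1, leaving 8, and Cd8a and Foxp3 fell out of DOX/anti-PD-1 against anti-PD-1, leaving 7. The counts and medians over 10 members include them without a test.

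Summed over the 10 members, the level was 31.7, 26.0 and 12.9 TPM in the IgG1 group and 21.1, 25.1 and 18.8 TPM in the anti-PD-1 group. It was 27.2, 74.9 and 62.8 TPM in the DOX/IgG1 group and 25.5, 37.9 and 39.3 TPM in the DOX/anti-PD-1 group. DOX/IgG1 replicates 2 and 3 stood highest, whereas replicate 1 of that group lay among the IgG1 tumors. Cd3e alone gave 24.6 of the 74.9 TPM in replicate 2. Set against Ptprc in the same tumor, the sum was 36.1%, 25.9% and 8.29% in IgG1, 26.1%, 23.7% and 31.9% in anti-PD-1, 52.4%, 60.9% and 36.9% in DOX/IgG1 and 42.4%, 36.2% and 50.2% in the DOX/anti-PD-1 group. On this scale, looked at after the values were known, the doxorubicin tumors were all above the others, by as little as 36.2% against 36.1%, and in DOX/IgG1 replicate 1 the share rests on the lowest Ptprc of all tumors, 51.9 TPM.

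**Figure D4:**
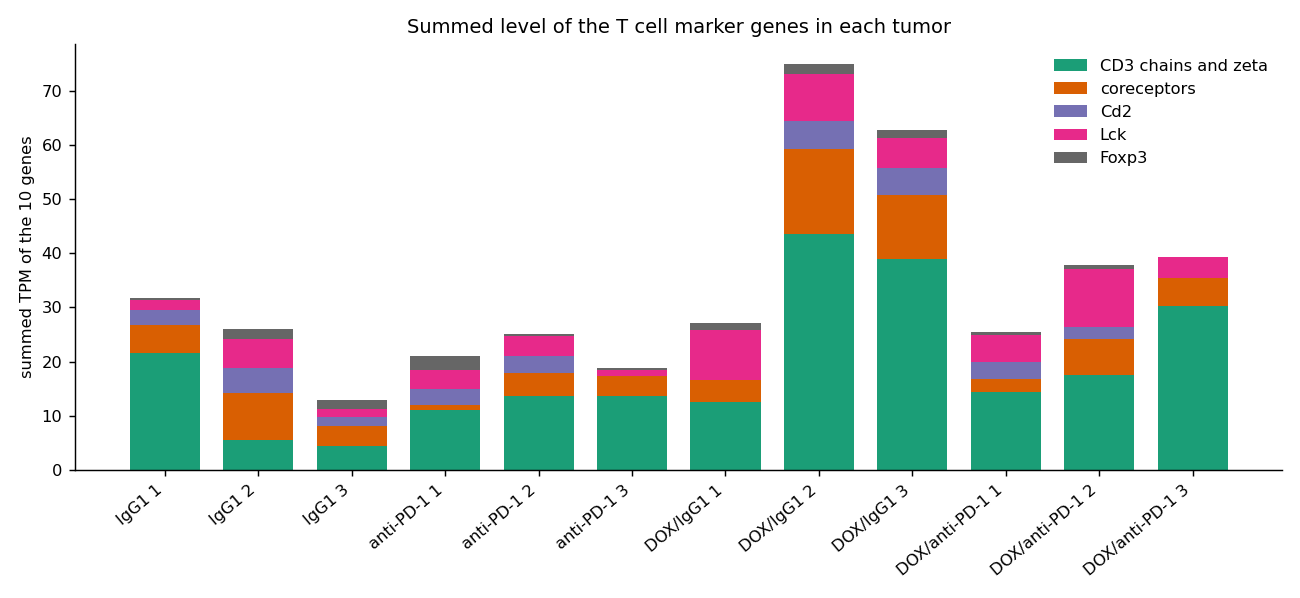
Summed TPM of the 10 T cell marker genes in each tumor, stacked by role; tumors are named by group and replicate. The sums run from 12.9 TPM in IgG1 replicate 3 to 74.9 TPM in DOX/IgG1 replicate 2.

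Most pairs of members had a low correlation from tumor to tumor, and no pairs of other genes at this level are given for comparison. Over the 45 pairs of members, the median Pearson correlation of log2(TPM + 1) across the 12 tumors was 0.24, with a range of -0.57 to 0.66. In 12 pairs r was below 0 and in 4 it was above 0.5, and no pair passed, as the smallest permutation p adjusted over the 45 pairs was 0.359. Once group means were removed, the median was 0.16, with a range of -0.67 (Cd3g and Lck) to 0.72 (Cd3d and Cd3g). For Cd3e and Cd3g, r was 0.42 (permutation p = 0.179, adjusted 0.577) and rho 0.44 (permutation p = 0.152, adjusted 0.626), with r = 0.43 without the 2 tumors farthest from the median. For Cd8a and Cd8b1, whose products pair in a dimer, r was 0.46 (permutation p = 0.124, adjusted 0.577) and rho 0.13 (permutation p = 0.677, adjusted 0.768), with r = 0.32 without the 2 farthest tumors. For Cd3e and Cd4, r was 0.62 (permutation p = 0.0306, adjusted 0.359) and rho 0.73 (permutation p = 0.00978, adjusted 0.44), with r = 0.59 without the 2 farthest tumors.

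Genes whose pattern was most like that of the CD3 chains were sought over the 12 tumors among 13629 genes, by their Pearson r with the mean log2(TPM + 1) of Cd3d, Cd3e and Cd3g. The 8 closest were Tagln, a smooth muscle actin-binding protein gene (r = 0.93), Mapk4 (0.89), Mitf (0.89), Imp4 (0.89), Ctns (0.88), Krt4 (0.88), Rab28 (0.87) and Slc2a12 (0.86). They were chosen for these values, which are a description with no test. Members were not part of this search, and by the same measure the other 7 ran from -0.48 (Foxp3) to 0.57 (Cd8b1). Of 10 genes of other lists set beside the CD3 mean, chosen with earlier results known, those with the largest r in size marked other tissue: the fibroblast gene Dcn (r = 0.75, rho = 0.77), the epithelial gene Epcam (r = -0.68, rho = -0.64) and the macrophage gene Csf1r (r = 0.65, rho = 0.66). The leukocyte gene Ptprc was at r = 0.19 (rho = 0.17). Dcn, Epcam and Csf1r were each the only gene of their list set beside the CD3 mean and do not stand for their lists. Krt19, another epithelial gene, was highest in DOX/IgG1 replicates 3 and 2, at 1801 and 1261 TPM. The CD3 mean was 2.57 and 2.82 in these tumors and 0.47 to 3.32 over all tumors. The fibroblast gene Col1a1 was highest in IgG1 replicate 3 (745 TPM), where the CD3 mean was 0.81. The macrophage list gene Cd14 was highest in DOX/IgG1 replicate 1 (357 TPM), where the CD3 mean was 0.88. The part of these tissues in the CD3 values was not tested.

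Genes around the T cell receptor came from a fixed list of 25 for signaling and costimulation, all of them listed and 20 at 1 TPM or more in at least 3 tumors. Their sum was 112, 142 and 127 TPM in IgG1, 115, 89.6 and 140 TPM in anti-PD-1, 247, 209 and 232 TPM in DOX/IgG1 and 110, 119 and 192 TPM in the DOX/anti-PD-1 group. The order rested on 1 gene. The most abundant gene was Cd27, a costimulatory receptor of T, B and NK cells, with 173 TPM in DOX/IgG1 replicate 1 and 7.92 to 59.5 TPM elsewhere. With it the DOX/IgG1 tumors had the 3 highest sums, and without it DOX/IgG1 replicate 1 was the lowest of all tumors at 73.8 TPM, replicates 2 and 3 were at 149 and 191 TPM, and DOX/anti-PD-1 replicate 3 was at 158 TPM. Thy1, the second, is also on the fibroblast list. The receptor kinase gene Zap70, picked after its values were seen, was listed at 0 in 7 tumors.

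The costimulatory receptor gene Cd226 was at 0, 0.43 and 2.40 TPM in IgG1, 1.37, 2.11 and 1.19 TPM in anti-PD-1, 5.20, 7.75 and 6.81 TPM in DOX/IgG1 and 1.57, 1.35 and 0 TPM in the DOX/anti-PD-1 group. All DOX/IgG1 tumors lay above all others, the order seen for Cd247 against IgG1 and DOX/anti-PD-1. Its fold change was 2.15 (SE 0.55, limma adjusted p = 0.46) in DOX/IgG1 against IgG1 and -2.04 (SE 0.54, limma adjusted p = 0.988) for DOX/anti-PD-1 against DOX/IgG1. Cd27 was at 1.36 (SE 0.48) and -2.10 (SE 0.62) in the same comparisons, and at 0.76 and -1.50 without DOX/IgG1 replicate 1.

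On this list limma called 0 genes in all 7 tests. At an unadjusted p under 0.05 it found 0 of 11 genes tested in anti-PD-1 against IgG1 (4.6% of all genes), 2 of 17 in DOX/IgG1 against IgG1 (7.73%), 1 of 14 in DOX/anti-PD-1 against anti-PD-1 (8.63%) and 2 of 15 for DOX/anti-PD-1 against DOX/IgG1 (4.70%). Over all tumors it found 2 of 20 for doxorubicin (12.0%), 3 of 20 for anti-PD-1 (4.69%) and 1 of 20 for the interaction (4.71%). For doxorubicin these were the adaptor gene Skap1 at 0.95 (SE 0.40, limma adjusted p = 0.356) and the kinase gene Txk at 0.76 (SE 0.32, limma adjusted p = 0.359). For anti-PD-1 they were Prkcq, which encodes protein kinase C theta, at 0.81 (SE 0.33), the GTPase gene Gimap3 at -0.79 (SE 0.35) and Cd27 at -1.16 (SE 0.50), each with a limma adjusted p of 0.999.

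All 14 transcription factors of the T cell list were among the genes listed, but the most abundant, Gata3 with a mean of 149 TPM, is also a mammary epithelial factor, and the list summed to 133 to 378 TPM. Ets1, the second, was at -0.74 (SE 0.31, limma adjusted p = 0.996) in anti-PD-1 against IgG1, at 0.62 (SE 0.27, limma adjusted p = 0.562) in DOX/anti-PD-1 against anti-PD-1 and at -0.51 (SE 0.22, limma adjusted p = 0.999) for anti-PD-1 over both arms. The regulatory T cell list, 10 of 10 listed, summed to 22.4 to 58.7 TPM with Ikzf2 the most abundant, and the homing and memory list, 10 of 10, to 22.0 to 64.4 TPM. Of the 12 constant chain genes of the T cell receptor, 0 were among the genes listed.

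On these 3 lists limma called 0 genes in all 7 tests. At an unadjusted p under 0.05 it found 0 or 1 of the 11 to 13 transcription factors tested, against 4.6% to 12.0% of all genes over the 7 tests. They were Ets1 in the 3 tests given above and Satb1, a chromatin organizer gene at -1.29 (SE 0.49, limma adjusted p = 0.584), in DOX/IgG1 against IgG1, or -0.88 without DOX/IgG1 replicate 1. Of the 5 to 7 regulatory T cell genes tested it found 0 to 2. For doxorubicin over both antibodies, with 2 of 7 against 12.0% of all genes, they were Tigit, which encodes an inhibitory receptor, at 0.98 (SE 0.45, limma adjusted p = 0.409) and the costimulatory receptor gene Tnfrsf18 at -1.06 (SE 0.49, limma adjusted p = 0.415). Tnfrsf18 was also at -1.84 (SE 0.78, limma adjusted p = 0.562) in DOX/anti-PD-1 against anti-PD-1, where 1 of 5 compares with 8.63% of all genes. It was listed at 0 in DOX/anti-PD-1 replicate 3, and without that tumor it was at -0.54 for doxorubicin and at -0.88 against anti-PD-1. Of the 6 to 8 homing and memory genes tested it found 0.

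NK cells share Cd2 and Cd247 with T cells. The NK list, 10 of 10 listed, summed to 17.3, 22.4 and 12.6 TPM in IgG1, 11.5, 20.3 and 33.1 TPM in anti-PD-1, 10.7, 72.1 and 60.8 TPM in DOX/IgG1 and 28.0, 40.3 and 29.9 TPM in the DOX/anti-PD-1 group. DOX/IgG1 replicates 2 and 3 were the highest and replicate 1 the lowest, the order of the T cell sum within that group. Klrd1, its most abundant gene, was at 17.4 and 22.1 TPM in these replicates and at 0 in replicate 1. Gzma, which encodes the cytotoxic protease granzyme A, was at 4.77, 0 and 2.50 TPM in IgG1, 1.95, 5.25 and 6.07 TPM in anti-PD-1, 2.70, 19.0 and 13.3 TPM in DOX/IgG1 and 0, 9.58 and 0 TPM in the DOX/anti-PD-1 group. Its fold change was 1.90 (SE 0.81, limma adjusted p = 0.629) in DOX/IgG1 against IgG1, and its interaction -3.11 (SE 1.32, limma adjusted p = 0.993). The former was 1.18 without IgG1 replicate 2 and 2.63 without DOX/IgG1 replicate 1. In DOX/IgG1 against IgG1 all 7 NK genes tested were positive, against 60.6% of all genes. Ncr1, Nkg7 and Prf1 were below the expression minimum and are not in this count, whereas the counts of T cell members take in all 10. The median of the NK genes tested was 1.13 beside 0.12 over all genes, and limma called 0 of them. That median was 1.54 without DOX/IgG1 replicate 1, 0.58 and 0.59 without DOX/IgG1 replicates 2 and 3, and 0.38 and 0.74 without IgG1 replicates 1 and 3. The number positive was 5 of 7 without DOX/IgG1 replicate 2 and 6 of 7 without IgG1 replicate 3. The part of NK cells in the Cd247 and Cd2 values was not tested.

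The lists of other leukocyte genes summed to very different levels, which depend on the genes listed and are not cell counts. The pan-leukocyte list, 10 of 10 listed, summed to 247, 205 and 295 TPM in IgG1, 188, 233 and 163 TPM in anti-PD-1, 163, 275 and 352 TPM in DOX/IgG1 and 187, 259 and 196 TPM in the DOX/anti-PD-1 group. The macrophage and monocyte list, 10 of 10, reached 370 to 844 TPM, led by Lyz2, and the dendritic cell list, 10 of 10, 27.9 to 84.3 TPM, led by Itgax. The B cell list, 10 of 10, reached 2.75 to 17.6 TPM, led by Cd22. The neutrophil list, 10 of 10, was nearly all Ltf, which mammary epithelium also expresses, while Ly6g and Camp were listed at 0 in all 12 tumors.

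Lymph nodes also hold T cells. The list for lymph node stroma and endothelium, 10 of 10 listed, summed to 20.1, 15.1 and 46.4 TPM in IgG1, 7.64, 23.6 and 25.9 TPM in anti-PD-1, 4.33, 58.9 and 41.3 TPM in DOX/IgG1 and 20.8, 15.9 and 17.0 TPM in the DOX/anti-PD-1 group, with Enpp2 the most abundant and Chst4 at 0 throughout. The highest sum, in DOX/IgG1 replicate 2, was mostly Enpp2 at 39.7 TPM. Without Enpp2 that tumor was at 19.2 TPM and IgG1 replicate 3 was the highest at 43.2 TPM, while DOX/IgG1 replicate 1 was the lowest with and without it. Ccl21a, the second gene, was listed at 0 in DOX/IgG1 replicate 1 and in every tumor of the DOX/anti-PD-1 group, and was highest in IgG1 replicate 3 at 22.1 TPM. Its part in the T cell values was not tested. The thymocyte list, 6 of 6 listed, was led by Cd24a, which epithelium also expresses, and Dntt was at 0 in all tumors.

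The remaining tissue also varied. The tumor epithelium list, 10 of 10 listed, summed to 2398 to 4151 TPM, and its most abundant gene Epcam was at -0.87 (SE 0.23, limma adjusted p = 0.469) in DOX/IgG1 against IgG1. Epcam was the 1 gene of the list with an unadjusted limma p under 0.05 there, and the list had a median of -0.23 with 3 of 10 positive. Krt19, the second gene, was at 847, 347 and 601 TPM in IgG1 and at 302, 1261 and 1801 TPM in DOX/IgG1. The fibroblast list, 8 of 8, ran from 551 to 1891 TPM with Col1a1 on top, highest in DOX/IgG1 replicate 2 and lowest in replicate 1. The endothelium list, 6 of 6, ran from 54.2 to 138 TPM, led by Pecam1, and the adipocyte list, 6 of 6, from 39.9 to 486 TPM, led by Adipoq. The skeletal muscle list, 6 of 6 with Acta1 the most abundant, ran from 0 in DOX/anti-PD-1 replicate 2 to 751 TPM in DOX/anti-PD-1 replicate 1. The part of tissue makeup in the T cell values was not tested.

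**Figure D5:**
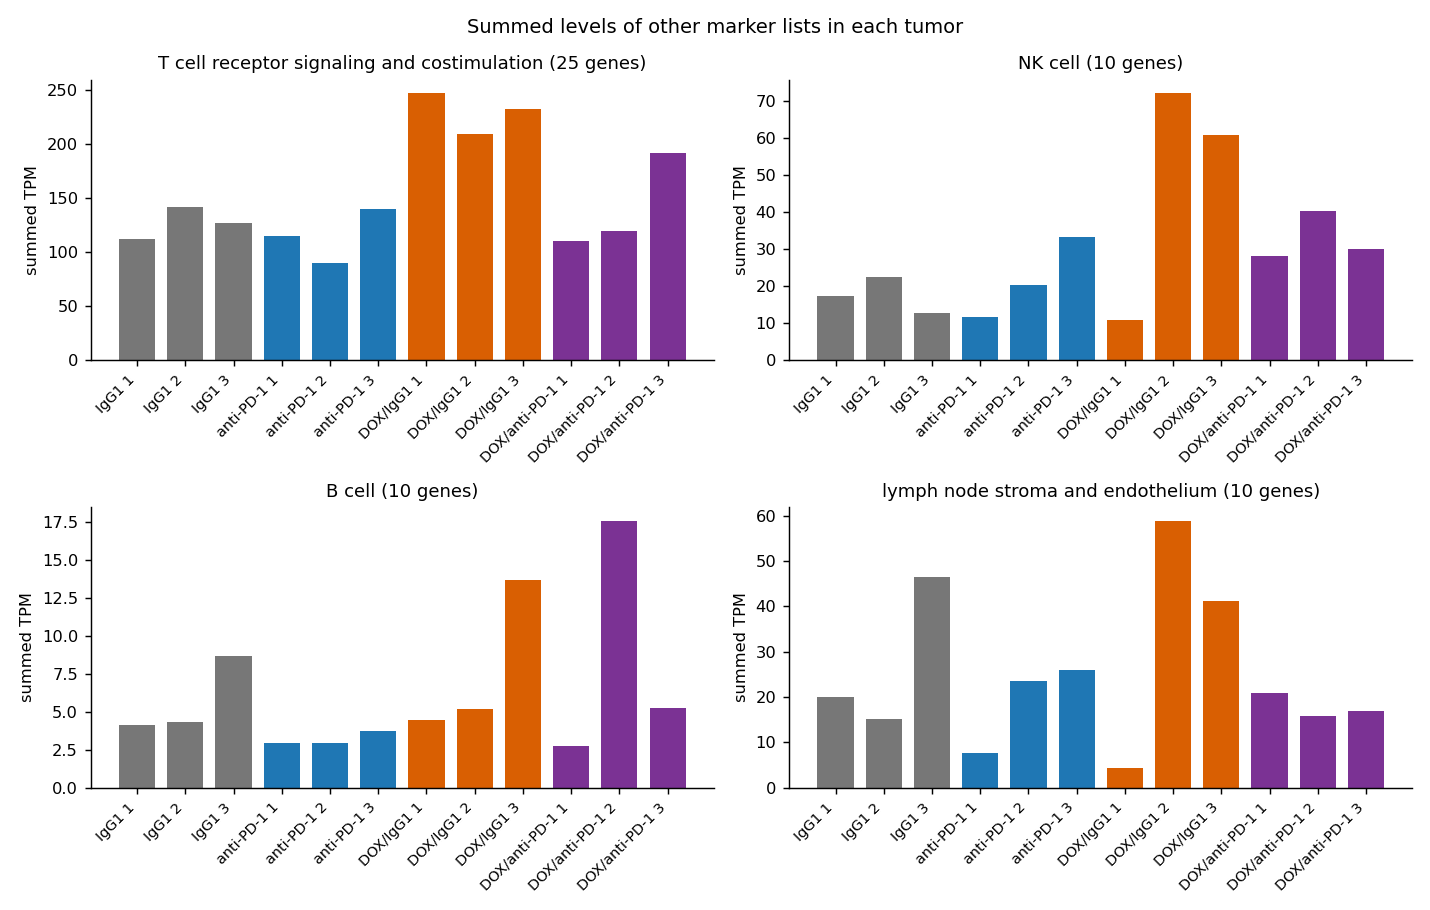
Summed TPM in each tumor of 4 fixed gene lists: T cell receptor signaling and costimulation, NK cell, B cell, and lymph node stroma and endothelium; bars are colored by treatment group. The NK sum is highest in DOX/IgG1 replicates 2 and 3 (72.1 and 60.8 TPM), and the lymph node sum is highest in DOX/IgG1 replicate 2 (58.9 TPM), of which 39.7 TPM is Enpp2.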

How the data were processed

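Total RNA of 12 whole tumors was sequenced from stranded libraries on a NextSeq, single end. The authors used skewer for trimming, STAR for alignment to mm10 and RSEM for quantification, and deposited log2(TPM + 1) values, from which TPM was recovered. TPM keeps no read count, so depth and its precision are unknown, and the strand setting is not given in the sources used here. Groups came from the treatment labels.

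Genes at 1 TPM or more in at least 3 of the tumors fitted were tested on log2(TPM + 1) with limma 3.58.1 (R 4.3.3, empirical Bayes with a mean-variance trend, tested on simulated data), with Benjamini-Hochberg adjustment over all genes tested. Called means an adjusted p under 0.1 and an absolute log2 fold change above 1. Each of the 4 pairs of groups was fitted on its 6 tumors, and the treatment effects over both arms and the interaction on all 12. Exact permutation tests were two-sided, and correlations used 100000 permutations (Python 3.11.15, scipy 1.17.1, pandas 2.3.3). Positions are from GENCODE on GRCm38.

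The members and the 18 other gene lists were chosen with earlier results of these data known. Named from each list were its 2 most abundant genes, genes at 0 in all tumors and up to 4 with the smallest unadjusted p under 0.05 in a comparison, of which the text gives a part. Also named were the 8 genes most like the CD3 chains and genes with the smallest adjusted p. Genes covered by this rule and not named are not reported here. Alternatives were a pseudocount of 0.1, no minimum, 1 TPM in every tumor, median of ratios scaling, no trend, a replicate block, 1 fit of all tumors, and each tumor left out.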

Additional observations from a re-analysis of the deposited data

How the results depend on the processing

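Of the values for single T cell genes under the alternatives, 688 moved by less than the spread between tumors without crossing the threshold, 30 moved further, all with a pseudocount of 0.1 and without crossing it, and 2 passed it (Cd3g without DOX/IgG1 replicate 1). Among those with an unadjusted p under 0.05, 0 changed direction. For genes of the other lists with an unadjusted p under 0.05, leaving out each tumor was added after seeing the data. It moved 577 values by less than the spread and 1 further, and 4 passed the threshold (Dcn, Enpp2, Krt19 and Cldn4 for doxorubicin without DOX/IgG1 replicate 1). The causes of the shifts below were not tested.

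With a pseudocount of 0.1, the median log2 fold change of the T cell genes was -0.94 in anti-PD-1 against IgG1, 1.26 in DOX/anti-PD-1 against anti-PD-1, 1.08 for doxorubicin over both antibodies and -1.12 for anti-PD-1 over both arms, and 0 genes were called by limma for the interaction. Without the mean-variance trend, the genes called were 1 in anti-PD-1 against IgG1, 13 in DOX/IgG1 against IgG1, 3 in DOX/anti-PD-1 against anti-PD-1, 3 for DOX/anti-PD-1 against DOX/IgG1, 0 for doxorubicin and 3 for the interaction. With 1 TPM required in every tumor they were 2 in DOX/IgG1 against IgG1, 14 for doxorubicin and 0 for the interaction, and with no minimum 3 for the interaction. With median of ratios scaling they were 3 for DOX/anti-PD-1 against DOX/IgG1, 14 for doxorubicin (3 higher and 11 lower, against 3 higher and 0 lower) and 0 for the interaction. With all 12 tumors in 1 fit there were 2 for DOX/anti-PD-1 against DOX/IgG1.

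When each tumor was left out in turn, the genes called ranged from 0 to 4 in anti-PD-1 against IgG1, 0 to 113 in DOX/IgG1 against IgG1, 0 to 4 in DOX/anti-PD-1 against anti-PD-1, 0 to 3 for DOX/anti-PD-1 against DOX/IgG1, 0 to 211 for doxorubicin, and 0 to 1 for the interaction. The highest counts for DOX/IgG1 against IgG1 and doxorubicin were those without DOX/IgG1 replicate 1. In the same order, the median over the T cell genes ranged from -0.53 to -0.19, 0.25 to 1.08, 0.44 to 0.87, -1.10 to -0.14 and 0.40 to 0.65, and from -0.57 to -0.35 for anti-PD-1 over both arms.

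The replicate numbers gave no clear pairing of the tumors. Deviations from the group means of the 18 pairs of tumors with the same number correlated at -0.10 to 0.13 (median 0.015), with 4 pairs over 0.1. Those of the 36 other pairs correlated at -0.19 to 0.11 (median -0.005), with 3 pairs over 0.1. With the replicate block the genes called were 2 in DOX/IgG1 against IgG1, 1 for doxorubicin and 0 for the interaction.

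Members near 1 TPM limit these results: with 3 tumors in a group and depth unknown, a value listed at 0 cannot be told from a low level, and on the log2(TPM + 1) scale fold changes of low genes are understated. No cell counts of the sequenced tumors were used here, although the paper measured T cell subsets by flow cytometry in tumors of the same treatment groups. Tissue makeup differed between tumors, and each group's 3 tumors give few arrangements for an exact test.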
